A study of Mus musculus with 8 samples.

Results

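The secreted inhibitors of Wnt signalling comprised 10 of the 31053 genes in the mouse matrix (Wif1, Sfrp1, Sfrp2, Sfrp4, Sfrp5, Frzb, Dkk1, Dkk2, Dkk3 and Sost), chosen by name for their known function. Earlier results of these data were known when these genes were chosen. They were described in single cells of the tibia of mice at P56 (8 weeks), profiled by droplet single-cell RNA sequencing in a study of the descendants of hypertrophic chondrocytes (HCs). All mice carried MMP14 F/+, together with COL10A1cre and R26-tdT, and also Col1a1-2.3-GFP, and were untreated, so that every cell came from mice with 1 floxed Mmp14 allele and there was no other genotype to compare with. Cre driven by Col10a1 acts in HCs and switches on tdTomato, whose transcript ends in the viral element WPRE, in HCs and the cells that descend from them, and GFP is driven by the 2.3 kb Col1a1 promoter. Cells of 3 mice were pooled, and the 8 labelled samples were deposited as 1 matrix with no mark of sample or mouse. They were treated as 1 sample, so no difference below has a replicate check and no test was possible.

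Wnt ligands act by joining a Frizzled receptor and the co-receptor LRP5 or LRP6 at the cell surface, which stabilises β-catenin. Secreted inhibitors act outside the cell in different ways. WIF1 and the secreted Frizzled-related proteins (the Sfrp genes and Frzb, which encodes sFRP3) bind the ligands, whereas DKK1, DKK2 and sclerostin, the product of Sost, bind LRP5 and LRP6. In bone, Wnt signalling favours the formation of osteoblasts, and sclerostin is known as a product of osteocytes. FRZB is known from articular cartilage.

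To show the regulatory sequence in front of members, the bases before the transcript start are given for some that were highest in different cell groups. These are Wif1, highest in articular-type cartilage cells with Prg4 or Cilp, Sfrp5, highest in Col2a1-rich cells, and Dkk2, highest in fibroblast-type cells. Wif1 and Sfrp5 did not lie in separate cells. The intervals of Sfrp5 in both cartilage groups overlapped, and 50 of the 77 Col2a1-rich cells with Sfrp5 also held Wif1. The sequences are those of RefSeq (GRCm38.p6), 5′ to 3′ on the strand of the gene. Capitals mark the core motif of the TCF/LEF factors, searched as CTTTG on both strands (CAAAG on the opposite strand). They lie at chr10:121033754-121033959 (plus strand), chr19:42202253-42202502 (minus strand) and chr3:132085042-132085291 (plus strand). For Wif1, 206 bases are shown, those before the earlier start in GENCODE.
Wif1: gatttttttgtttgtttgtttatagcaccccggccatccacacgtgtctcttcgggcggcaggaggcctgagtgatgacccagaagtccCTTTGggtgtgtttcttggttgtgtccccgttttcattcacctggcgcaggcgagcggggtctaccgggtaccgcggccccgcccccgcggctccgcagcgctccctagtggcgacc
Sfrp5: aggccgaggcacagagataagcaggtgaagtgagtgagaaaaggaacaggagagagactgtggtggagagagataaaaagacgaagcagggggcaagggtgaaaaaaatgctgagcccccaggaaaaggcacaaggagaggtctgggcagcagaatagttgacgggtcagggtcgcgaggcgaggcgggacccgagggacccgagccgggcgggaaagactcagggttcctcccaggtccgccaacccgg
Dkk2: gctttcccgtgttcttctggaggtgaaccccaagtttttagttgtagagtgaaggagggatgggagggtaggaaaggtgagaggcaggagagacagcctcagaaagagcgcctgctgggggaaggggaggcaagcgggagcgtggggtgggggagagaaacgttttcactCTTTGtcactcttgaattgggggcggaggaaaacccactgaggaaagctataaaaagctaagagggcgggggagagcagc

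Of the 10 members, 7 were in the promoter table. The core occurred in the 250 bases before the RefSeq start of 4 of these 7 (Wif1, Frzb, Dkk1 and Dkk2) and in 48.6% of all 32851 promoters of the table, so that the members' share was near that of promoters at large. The GENCODE start lies 229 bases further upstream for Frzb and 169 for Dkk1, so that the match of Frzb and 3 of the 4 of Dkk1 lie downstream of it. The core was not found before the start of Sfrp2, Sfrp5 and Sost. A match describes these letters only.

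Of 12564 barcodes, 4472 held at least 1600 genes, with a median of 10451 UMIs (unique molecular identifiers, each standing for 1 captured transcript) and a range of 3224 to 103543. Cells were sorted by raw marker counts into 8 gates, named here by their marker genes: Col2a1 (243 cells), Col10a1/Ihh (79), Prg4/Cilp (197), Bglap (54), Cxcl12/Lepr (23), Dcn/Col3a1 (164), Cdh5 (89) and Ptprc (3286). Their marker genes are known, in this order, from growth plate chondrocytes, prehypertrophic and hypertrophic chondrocytes, articular-type chondrocytes, osteoblasts, marrow stroma, fibroblast-type, endothelial and blood cells. In the 7 gates other than Ptprc, between 7 and 8 of the 8 listed markers of each gate's own cell type were at least 4-fold above the cells that passed the Ptprc gate alone. These counts do not set the skeletal gates apart from each other, since all 8 Col2a1 gate markers also passed in the Col10a1/Ihh, Prg4/Cilp, Bglap and Dcn/Col3a1 gates, and the markers of the Dcn/Col3a1 gate summed to 88841 CPM in the Bglap gate against 32462 CPM in their own. All 8 endothelial markers passed in the Cxcl12/Lepr gate too, where they summed to 1190 CPM against 3024 CPM in the Cdh5 gate, and 4 of its 23 cells also passed the Cdh5 gate. The label of the samples is chondro-osteogenic, whereas most barcodes held a Ptprc UMI. Gates overlap, with 303 barcodes in 2 or more of them. All 79 Col10a1/Ihh cells also passed another gate, 81 cells passed both the Prg4/Cilp and the Dcn/Col3a1 gates, and 25 of the 54 Bglap cells also passed the Col2a1 gate. Levels are UMIs per 1000000 UMIs of the gate's cells (CPM) with exact Poisson 95% intervals, and shares of cells have exact Clopper-Pearson 95% intervals. These intervals hold counting error alone and leave out how far cells or mice vary.

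At least 1 member was detected in 90.9% of Prg4/Cilp cells (85.9% to 94.5%, 179 of 197), 91.3% of Cxcl12/Lepr cells (72.0% to 98.9%, 21 of 23) and 88.4% of Dcn/Col3a1 cells (82.5% to 92.9%, 145 of 164). The share was 64.6% in Col2a1 cells, 68.5% in Bglap cells and 86.1% in Col10a1/Ihh cells, at greater depth. In the 89 Cdh5 cells it was 10.1%, and in the 42 of them without a Ptprc UMI it was 14.3% (5.43% to 28.5%). In Ptprc cells it was 3.77%, and among the 3150 cells that passed the Ptprc gate alone it was 1.75% (1.32% to 2.27%). Secreted Wnt inhibitors were thus detected in most cells of each skeletal gate and in few vascular or blood cells. Of the 8 members with at least 50 UMIs in gated cells, Wif1 and Frzb were highest in the Prg4/Cilp gate, Sfrp1 and Sfrp4 in the Cxcl12/Lepr gate, Dkk2 and Dkk3 in the Dcn/Col3a1 gate, and Sfrp5 in the Col2a1 gate. Dkk1 was nominally highest in the Cdh5 gate, through 1 cell. Sfrp2 and Sost had 20 and 4 UMIs in all.

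**Figure D1:**
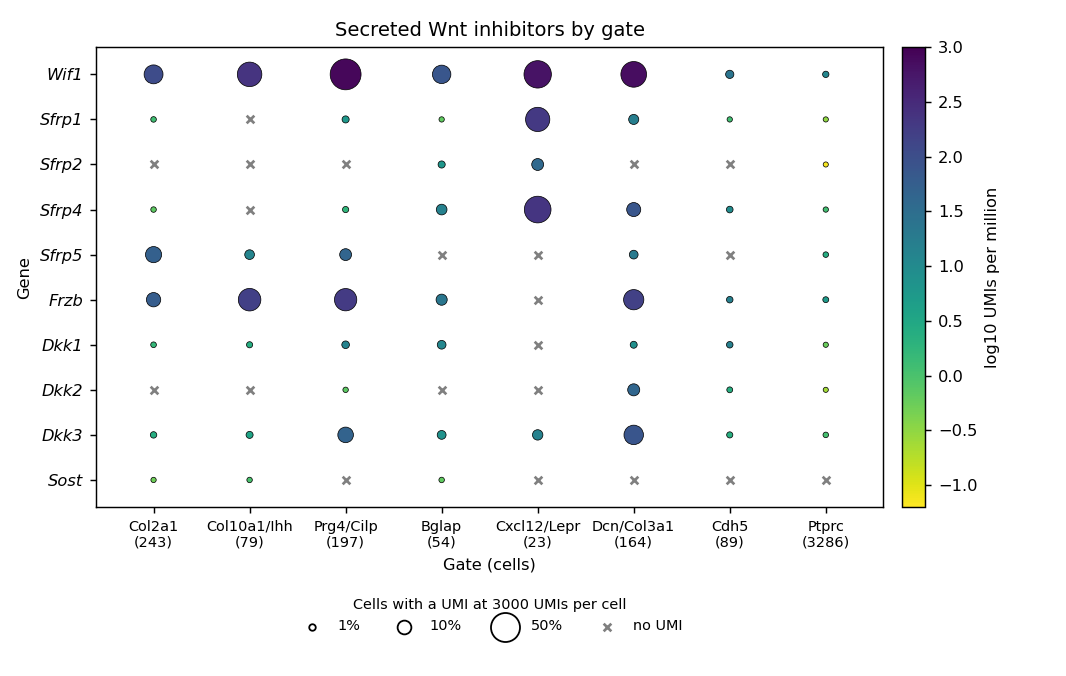
The 10 members (rows) in the 8 gates (columns, with cell numbers), where colour is log10 of CPM, point area the share of cells with a UMI after thinning to 3000 UMIs per cell, and a cross no UMI. Wif1 is present in every gate and reaches 846 CPM in the Prg4/Cilp gate, Sfrp1 and Sfrp4 stand out in the Cxcl12/Lepr gate at 198 and 226 CPM, and Frzb has no UMI there.

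Wif1 (chromosome 10, 121033960 to 121100650, plus strand, GRCm38), which binds Wnt ligands directly, was represented by 3305 UMIs in 313 cells. Its level was 846 CPM (812 to 881) in the Prg4/Cilp gate, 718 CPM (684 to 754) in the Dcn/Col3a1 gate and 621 CPM (519 to 736) in the Cxcl12/Lepr gate. It was 237 CPM (216 to 259) in the Col10a1/Ihh gate, 108 CPM (99.7 to 117) in the Col2a1 gate and 75.3 CPM (62.0 to 90.7) in the Bglap gate. Only the Dcn/Col3a1 and Cxcl12/Lepr gates, which are neighbours in this order, had overlapping intervals. The Cdh5 gate held 24.3 CPM, from 21 UMIs in 5 cells, and the Ptprc gate 11.5 CPM. The share of cells with a UMI was 76.6% in the Prg4/Cilp gate at a median of 11940 UMIs and 2.10% in the Ptprc gate at a median of 10049 UMIs. At an equal depth of 3000 UMIs it was 56.9% and 0.861%, against 44.4% in the Cxcl12/Lepr gate, 38.8% in the Dcn/Col3a1 gate, 35.2% in the Col10a1/Ihh gate, 20.3% in the Col2a1 gate and 19.2% in the Bglap gate. Cells varied widely. Prg4/Cilp cells ranged from 0 to 6206 CPM with a median of 369 CPM, and a single cell held 275 of the 2358 UMIs.

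The chondrocyte and osteoblast gates were not uniform for Wif1. In the 35 Col10a1/Ihh cells that also passed the Prg4/Cilp gate, Wif1 was at 862 CPM (783 to 946) and was seen in 33 cells. In the other 44 it was at 20.5 CPM (13.8 to 29.2), seen in 15 cells with at most 7 UMIs each. The level in the Col10a1/Ihh gate therefore came mostly from cells that were articular-type by their Prg4 or Cilp counts. Of the Bglap cells, the 29 outside the Col2a1 gate held 160 CPM (129 to 197) and the 25 inside it 24.0 CPM (15.0 to 36.3), and 30 of the 111 UMIs of the gate lay in 1 cell. The 21 Bglap cells that passed neither a cartilage gate nor the Dcn/Col3a1 gate held 200 CPM (159 to 248), with Wif1 in 14 of them.

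Sfrp1 and Sfrp4, which encode secreted Frizzled-related proteins that bind Wnt ligands, had their highest levels in the marrow stroma gate, a rank that Sfrp4 lost when only cells of 1 gate were used. Sfrp1 (chromosome 8, 23411502 to 23449632, plus strand) was at 198 CPM (142 to 267) in the Cxcl12/Lepr gate, where 13 of 23 cells held it. It was next at 16.8 CPM (11.9 to 23.0) in the Dcn/Col3a1 gate and at 5.74 CPM (3.28 to 9.32) in the Prg4/Cilp gate, and these 3 intervals did not overlap. In the Col2a1, Bglap, Cdh5 and Ptprc gates it lay between 0.313 and 1.24 CPM, and no UMI was seen in the 79 Col10a1/Ihh cells, which allows up to 1.52 CPM. The 23 stroma cells, which made up 212646 of the 57633356 UMIs of all cells at the gene floor, held 48.8% of all Sfrp1 UMIs, and the Dcn/Col3a1 cells 44.2%. Shares of cells were 56.5% in the stroma gate at a median of 7733 UMIs and 0.274% in the Ptprc gate.

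Sfrp4 (chromosome 13, 19623104 to 19632994, plus strand) was at 226 CPM (166 to 299) in the Cxcl12/Lepr gate and was seen in 16 of 23 cells. The Dcn/Col3a1 gate held 75.9 CPM (65.0 to 88.2) in 30 of 164 cells, with 58 of its 172 UMIs in 1 cell. The Bglap gate held 14.9 CPM (9.36 to 22.6) in 4 of 54 cells. Other gates were at 9.26 CPM or below, 7 of the 8 UMIs in the Cdh5 gate came from 1 cell, and no UMI was seen in the Col10a1/Ihh gate. In Ptprc cells the share with a UMI was 0.365%, against 69.6% in the stroma gate. In cells that passed only 1 gate it was at 248 CPM in the stroma gate and 251 CPM in the Dcn/Col3a1 gate. It was at 0.707 CPM (0.193 to 1.81) in the Col2a1 gate and 1.79 CPM (0.582 to 4.19) in the Prg4/Cilp gate, and at 0.412 CPM (0.235 to 0.669) in cells that passed the Ptprc gate alone, with overlapping intervals.

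Within the 23 stroma cells the members were not spread alike. Wif1 was held by 13 cells, with a lowest, median and highest count of 0, 2 and 30 UMIs. Sfrp1 ranged from 0 to 12 UMIs with a median of 1, and Sfrp4 from 0 to 10 with a median of 1. The cells richest in Wif1, with 30, 26, 26 and 17 UMIs, held between 0 and 3 UMIs of Sfrp1 and no more than 1 of Sfrp4. The cells richest in Sfrp4, with 10, 9 and 7 UMIs, held between 0 and 2 UMIs of Wif1. Across the 23 cells of this 1 library, Pearson's r of log values was -0.46 between Wif1 and Sfrp4, 0.17 between Wif1 and Sfrp1 and 0.17 between Sfrp1 and Sfrp4, given as a description of few and sparse counts. Frzb, Sfrp5, Dkk1, Dkk2 and Sost were at 0 UMIs in all 23 cells, which allows up to 14.1 CPM for each.

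**Figure D2:**
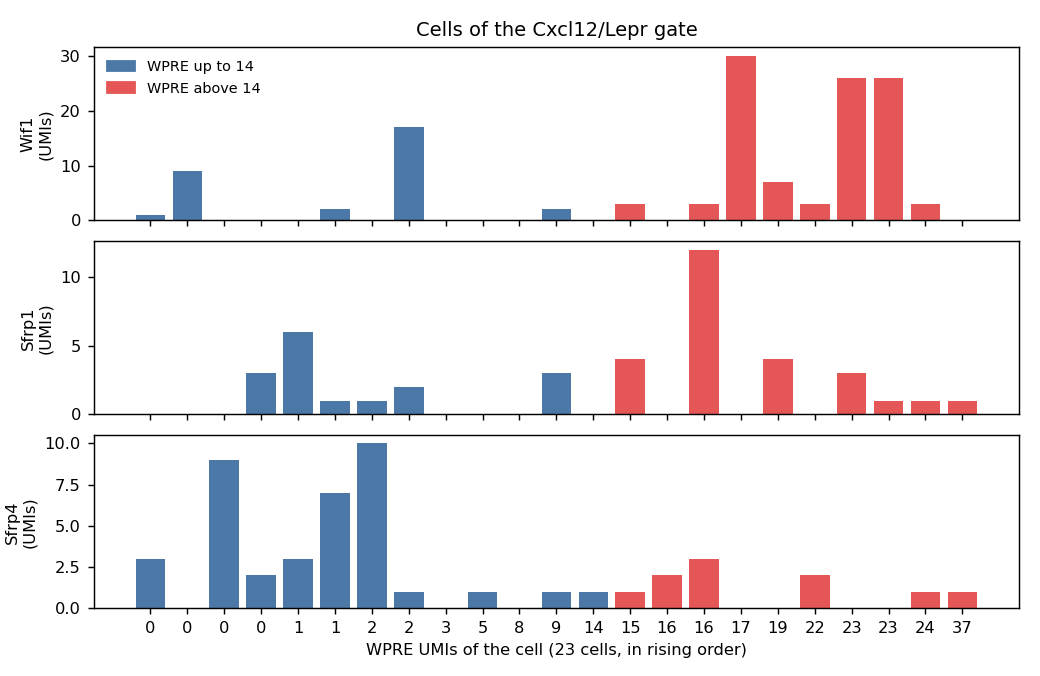
UMIs of Wif1, Sfrp1 and Sfrp4 (vertical axes) in each of the 23 cells of the Cxcl12/Lepr gate, in rising order of WPRE UMIs (horizontal axis), with the 10 cells above 14 WPRE UMIs in red. The 3 highest Wif1 counts (30, 26 and 26) lie in cells above 14 WPRE UMIs, and the 3 highest Sfrp4 counts (10, 9 and 7) in cells with at most 2 WPRE UMIs.

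Sfrp2 (chromosome 3, 83766321 to 83774316, plus strand), another secreted Frizzled-related protein gene, had 20 UMIs in 6 cells. Of these, 9 UMIs lay in 1 Bglap cell, 8 in 2 stroma cells and 3 in 3 Ptprc cells, and the other gates had none. The floors that 3 counts allow ranged from 0.530 CPM in the Col2a1 gate to 3.47 CPM in the Cdh5 gate.

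Sfrp5 and Frzb, also Frizzled-related, were found mostly in the cartilage gates. Sfrp5 (chromosome 19, 42197971 to 42202252, minus strand) was at 53.0 CPM (47.2 to 59.3) in the Col2a1 gate and at 44.5 CPM (37.0 to 53.0) in the Prg4/Cilp gate, with intervals that overlapped. It was between 13.7 and 25.6 CPM in the Dcn/Col3a1 gate and at 12.2 CPM in the Col10a1/Ihh gate, and no UMI was seen in the Bglap, Cxcl12/Lepr or Cdh5 gates. Among Col2a1 cells 31.7% held it, at a median of 19589 UMIs, and among Ptprc cells 0.761%. In the Col10a1/Ihh gate, 23 of its 24 UMIs lay in the 35 cells shared with the Prg4/Cilp gate, and in the Dcn/Col3a1 gate 41 of 43 UMIs lay in the 81 shared cells. In the 44 Col10a1/Ihh cells outside the Prg4/Cilp gate Sfrp5 was at 0.682 CPM, from 1 UMI (0.0173 to 3.80 CPM), and in the 200 Col2a1 cells outside the Col10a1/Ihh gate at 70.8 CPM (63.0 to 79.3).

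Frzb (chromosome 2, 80411970 to 80447625, minus strand) was at 186 CPM (170 to 203) in the Prg4/Cilp gate, 159 CPM (142 to 178) in the Col10a1/Ihh gate and 156 CPM (140 to 173) in the Dcn/Col3a1 gate. The intervals of neighbouring gates in this order overlapped. It was lower at 59.2 CPM (53.0 to 65.9) in the Col2a1 gate and 22.4 CPM (15.4 to 31.4) in the Bglap gate. The 15.1 CPM of the Cdh5 gate came from 1 cell, and the stroma gate had none. Cells with a Frzb UMI made up 67.1% of the Col10a1/Ihh gate at a median of 24233 UMIs, 49.2% of the Prg4/Cilp gate and 1.40% of the Ptprc gate. Frzb was found in 31 of the 44 Col10a1/Ihh cells outside the Prg4/Cilp gate, at 106 CPM (89.7 to 124), and in 22 of the 35 inside it, at 313 CPM (267 to 366). A single cell held 62 of the 159 UMIs of the latter.

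The Dickkopf genes had their own distributions. Dkk1 (chromosome 19, 30545863 to 30549665, minus strand), which encodes an inhibitor that binds LRP5 and LRP6, was rare, with 54 UMIs in 22 cells. It was at 13.3 CPM (9.35 to 18.3) in the Prg4/Cilp gate, 11.5 CPM (6.72 to 18.5) in the Bglap gate and 7.95 CPM (4.71 to 12.6) in the Dcn/Col3a1 gate. The 13 UMIs of the Cdh5 gate, 15.1 CPM, were all in 1 barcode, which also passed the Ptprc gate and a skeletal gate. The levels of the other gates also rest on few cells. Of the 37 UMIs of the Prg4/Cilp gate, 22 lay in 2 cells. These were the barcode of the Cdh5 gate and the cell that held 9 of the 17 UMIs of the Bglap gate. The levels of the Cdh5, Prg4/Cilp and Bglap gates thus share these 2 barcodes. Cells that passed the Prg4/Cilp gate and no other held 0. Intervals of neighbouring gates overlapped throughout its order. Dkk1 was seen in 9.26% of Bglap cells at a median of 25760 UMIs and in 0.243% of Ptprc cells.

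Dkk2 (chromosome 3, 132085292 to 132180304, plus strand), which also binds LRP5 and LRP6, was close to exclusive to 1 gate. Of 100 UMIs at the gene floor, 97 lay in 18 of the 164 Dcn/Col3a1 cells, at 42.8 CPM (34.7 to 52.2), and a single cell held 26 of them. The next gate by level, Cdh5, held 2 UMIs, and 9 of the 10 UMIs of the Ptprc gate lay in 1 barcode that also passed a skeletal gate. Within the Dcn/Col3a1 gate, 95 UMIs lay in 16 of the 83 cells outside the Prg4/Cilp gate and 2 in 2 of the 81 cells inside it. Clec3b, a gene of fibroblast matrix, was seen in 11 of the 18 cells with Dkk2 and 24 of the 146 without, and Tnmd (tenomodulin, a tendon marker) in 8 and 6, whereas Scx, the gene of a tendon transcription factor, was seen in 6 and 34. Outside the Prg4/Cilp gate, Clec3b was seen in 10 of 16 cells with Dkk2 and 18 of 67 without, Tnmd in 7 and 5, and Scx in 4 and 14. In the whole gate the median depths were 9433 and 10409 UMIs, and Pi16 was seen in 2 and 7 cells. Lum was seen in 17 and 89 cells, Pdgfra in 11 and 72, Col1a1 in 18 and 128 and Col1a2 in 18 and 145. The Col1a1 level was 6908 CPM in cells with Dkk2 and 15106 CPM in the others. The others include the 12 cells that also passed the Bglap gate, where Dkk2 had no UMI. Among Ptprc cells the share with Dkk2 was 0.0609%.

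Dkk3 (chromosome 7, 112116017 to 112159057, minus strand), a divergent member of the family whose part in Wnt signalling is less settled, was at 76.8 CPM (65.8 to 89.1) in the Dcn/Col3a1 gate and at 47.0 CPM (39.3 to 55.8) in the Prg4/Cilp gate. It was more evenly spread than the other Dickkopf genes, in 77 of 164 and 62 of 197 cells with no more than 16 UMIs in any of them. The Cxcl12/Lepr gate held 14.1 CPM (2.91 to 41.2) from 3 UMIs, the Bglap gate 7.46 CPM (3.73 to 13.4), and the Col2a1 and Col10a1/Ihh gates 2.47 and 3.55 CPM. In the Ptprc gate 0.852% of cells held a UMI.

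Sost (chromosome 11, 101962458 to 101967015, minus strand), which encodes sclerostin, was all but missing. Its 4 UMIs lay in 3 cells, with 2 UMIs in a Col10a1/Ihh cell that also passed the Col2a1 gate, 1 in another Col2a1 cell and 1 in a Bglap cell. In the Bglap gate this amounts to 0.679 CPM (0.0172 to 3.78) and 1.85% of cells. Of 6 listed osteocyte genes, Fgf23 was also at 0 UMIs in every gate, whereas the other 5 were at least 4-fold above the Ptprc-only cells in the Bglap gate, as 5 of the 6 also were in each of the Col2a1, Prg4/Cilp and Dcn/Col3a1 gates. The list summed to 461 CPM in the Bglap gate and to 155, 163 and 200 CPM in these. Dmp1 was at 170 CPM and Phex at 248 CPM in the Bglap gate, and in other gates at most at 30.2 and 141 CPM, whereas Ackr3 was at 27.8 CPM there and 150 CPM in the Prg4/Cilp gate, and Mepe rests on 1 UMI in the Bglap gate. A low Sost level in osteocytes and a lack of osteocytes among the released cells cannot be told apart in these data.

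Because 81 cells passed both the Prg4/Cilp and the Dcn/Col3a1 gates, their members were compared with those of the 116 cells of the first gate alone and the 83 of the second alone (gates other than these 2 were disregarded). Wif1 was highest in the shared cells at 1264 CPM (1200 to 1331), against 556 CPM (520 to 593) and 163 CPM (140 to 188). Frzb followed the same order at 232 CPM (205 to 262), 154 CPM (135 to 174) and 78.4 CPM (62.9 to 96.6). Sfrp5 was at 35.9 CPM (25.8 to 48.7) in the shared cells and 50.5 CPM (40.2 to 62.5) in Prg4/Cilp-only cells, but at 1.78 CPM in Dcn/Col3a1-only cells. These 3 members therefore sided with the Prg4/Cilp gate. Sfrp4 and Dkk2 did the reverse. Sfrp4 was at 149 CPM (127 to 173) in Dcn/Col3a1-only cells, 4.38 CPM (1.42 to 10.2) in the shared cells and at 0 UMIs in Prg4/Cilp-only cells, and Dkk2 at 84.6 CPM (68.5 to 103), 1.75 CPM (0.212 to 6.33) and 0 UMIs. For Dkk3 the shared cells, at 84.0 CPM (68.1 to 103), resembled the Dcn/Col3a1-only cells, at 69.5 CPM (54.9 to 86.7), more than the Prg4/Cilp-only cells, at 21.3 CPM (14.8 to 29.6). Sfrp1 was at 1.22 CPM (0.147 to 4.39) in Prg4/Cilp-only cells and, with overlapping intervals, at 12.3 CPM (6.70 to 20.6) in the shared and 21.4 CPM (13.7 to 31.8) in the Dcn/Col3a1-only cells.

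**Figure D3:**
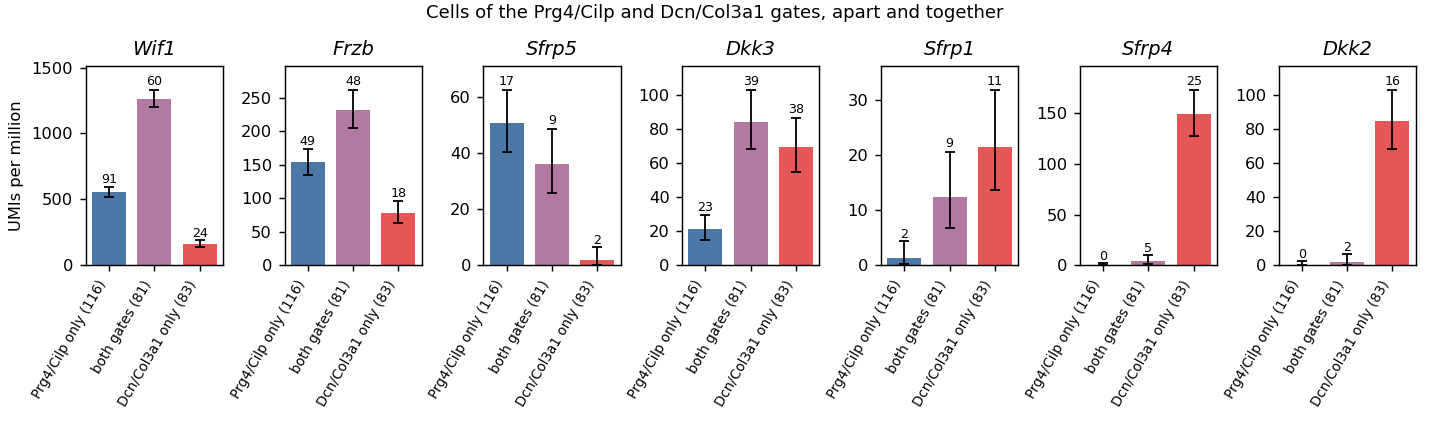
UMIs per 1000000 (vertical axes, each on its own scale from 0) of 7 members in cells of the Prg4/Cilp gate only (116), of both gates (81) and of the Dcn/Col3a1 gate only (83), with exact Poisson 95% intervals and the number of cells with a UMI above each bar. Wif1 peaks in the shared cells at 1264 CPM, and Sfrp4 and Dkk2 rest almost wholly in Dcn/Col3a1-only cells at 149 and 84.6 CPM.

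Co-detection in single cells was counted over the whole Dcn/Col3a1 gate, so that it includes the difference between the shared and the Dcn/Col3a1-only cells. Frzb was seen in 57.1% of the 84 cells with Wif1 and in 22.5% of those without, at median depths of 12234 and 9124 UMIs. All 11 cells with Sfrp5 held Wif1. Sfrp4, by contrast, was seen in 10.7% of cells with Wif1 and 26.2% of those without, which were the shallower cells. Frzb was seen in 13.3% of the 30 cells with Sfrp4 and 46.3% of the others, at medians of 10462 and 10198 UMIs, and no cell held both Sfrp4 and Sfrp5. Sfrp4 was seen in 40.0% of the 20 cells with Sfrp1 and 15.3% of those without, at medians of 12509 and 9786 UMIs, and Dkk2 in 23.3% of cells with Sfrp4 and 8.21% of the others. Dkk3 was seen in 45.2% of cells with Wif1 and 48.8% without, and in 46.7% of cells with Sfrp4 and 47.0% without. Within the 83 Dcn/Col3a1-only cells, Frzb was seen in 45.8% of cells with Wif1 and 11.9% of those without, and in 4.00% of cells with Sfrp4 and 29.3% of the others. There, Sfrp4 was seen in 20.8% of cells with Wif1 and 33.9% without, and Dkk2 in 24.0% of cells with Sfrp4 and 17.2% without. Within the 81 shared cells, Frzb was seen in 61.7% of cells with Wif1 and 52.4% without, Sfrp4 in 6.67% and 4.76%, and Frzb in 3 of the 5 cells with Sfrp4 and 59.2% of the others. All pairs of genes share the depth of their cells, and these shares have no test.

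**Figure D4:**
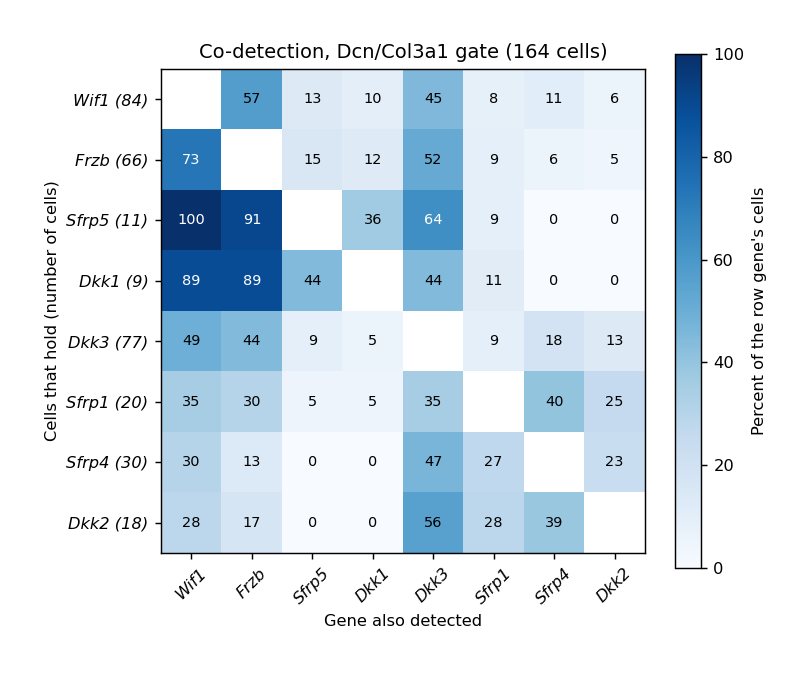
Percent of the cells that hold the row gene (with their number) that also hold the column gene, among the 164 cells of the Dcn/Col3a1 gate. Of the 84 cells with Wif1, 57.1% hold Frzb, 13.1% Sfrp5, 10.7% Sfrp4, 9.52% Dkk1 and 5.95% Dkk2.

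In the Col2a1 gate, Sfrp5 was seen in 51.5% of the 97 cells with Wif1 and 18.5% of those without, although the cells with Wif1 were shallower, at a median of 16252 against 22737 UMIs. Frzb was seen in 43.3% and 19.9%. Frzb was seen in 24.7% of the 77 cells with Sfrp5 and 31.3% of the others, at medians of 14497 and 25147 UMIs. Among the 200 cells outside the Col10a1/Ihh gate these shares were 23.7% and 18.5%, at medians of 14307 and 19766 UMIs. In the Prg4/Cilp gate, 25 of the 26 cells with Sfrp5 held Wif1, and Dkk3 was seen in 28.5% of cells with Wif1 and 41.3% of those without.

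Ratios between gates were then computed, leaving out the cells that passed both gates, except in the first, where the 43 shared cells were kept with the Col10a1/Ihh gate. A gene was called when it had at least 50 UMIs in both sides together and differed at least 4-fold. The Col10a1/Ihh cells were first set against the other 200 Col2a1 cells (medians of 24233 and 17724 UMIs). Of 7990 genes with enough UMIs, 4.09% were called, and of the 3 members with enough UMIs 1 was called, Sfrp5. Sfrp5 was lower in the Col10a1/Ihh gate, at 12.2 against 70.8 CPM, a log2 ratio of -2.54 (-3.21 to -1.94). Frzb was higher at 159 against 44.0 CPM, a log2 ratio of 1.85 (1.59 to 2.12), just short of the limit, and 1.54 without the cell that held most of it. Wif1 was at 237 against 139 CPM, a log2 ratio of 0.77 (0.59 to 0.95). The members' median was 0.77 and that of all genes -0.13. Leaving out the cells of both sides that passed any gate besides these 2 left 26 Col10a1/Ihh and 142 Col2a1 cells and turned the Wif1 ratio to -2.52 and took Frzb to 2.06, so that all 3 members were called, with 7.37% of all genes called.

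Next, the Prg4/Cilp gate was set against the Col2a1 gate (185 and 231 cells, medians of 11828 and 19552 UMIs). Among 8821 genes 6.29% were called, and 2 of 4 members, Wif1 and Dkk3, both higher in the Prg4/Cilp gate. Wif1 was at 943 and 109 CPM, 3.11 (2.98 to 3.24) on the log2 scale, and Dkk3 at 53.0 and 2.62 CPM, 4.34 on the log2 scale (3.54 to 5.25). Frzb was at 193 and 54.8 CPM, 1.81 (1.60 to 2.03) on the log2 scale, and Sfrp5 at 32.8 and 48.1 CPM, -0.55 (-0.93 to -0.19). Weighting cells equally gave 2.18 for Wif1 and -1.09 for Sfrp5. The median log2 ratio of the 4 members was 2.46, against 0.04 for all genes. Dkk1, with 37 and 9 UMIs, fell short of the minimum, and 24.1% of all its UMIs at the gene floor lay in 1 cell. With only cells of 1 gate, 7.15% of all genes and 2 of 3 members were called, but these were Wif1 and Frzb, at 2.51 and 2.11, with Sfrp5 at -1.55, since Dkk3 then had 35 UMIs in both sides together, under the minimum.

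The osteoblast and stroma gates, Bglap and Cxcl12/Lepr (54 and 23 cells, medians of 25760 and 7733 UMIs), shared no cell. Of 3821 genes 12.7% were called, and so were both members with enough UMIs, Wif1 and Sfrp4, each lower in the Bglap gate. The log2 ratio was -3.04 (-3.42 to -2.67) for Wif1 and -3.92 (-4.72 to -3.16) for Sfrp4, with a median of -3.48 against -0.24 for all genes. Without the Bglap cells that also passed the Col2a1 gate, the ratio of Wif1 was -1.96, below the limit, and that of Sfrp4 -2.65. At a floor of 2500 genes the ratio of Sfrp4 was -4.55, from 31 UMIs, under the minimum, and it was -4.91 without the cell that held most of it. With only cells of 1 gate the ratios of Wif1 and Sfrp4 were -1.48 and -2.04, so that Sfrp4 alone was called beside 17.4% of all genes, and with each cell weighing the same -2.05 and -2.55. Sfrp1 had 1 UMI in the Bglap gate and 42 in the stroma gate, 0.679 and 198 CPM, -8.19 on the log2 scale (-13.52 to -5.63) with fewer than 50 UMIs. The reverse held for Frzb, with 33 UMIs in 16 Bglap cells and none in the stroma gate, where up to 14.1 CPM would go unseen.

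Against the same stroma gate, the Dcn/Col3a1 gate had 3 of 6 members called, with 10.1% of 5548 genes called (162 and 21 cells, medians of 10370 and 7733 UMIs). Sfrp1 was lower in the Dcn/Col3a1 gate at 14.7 against 189 CPM, a log2 ratio of -3.69 (-4.41 to -2.97). Frzb, at 157 CPM against 0 UMIs, was at least 10.2-fold higher, and Dkk3, at 77.0 against 10.2 CPM, had a log2 ratio of 2.91 (1.04 to 5.97) that rests on 2 stroma UMIs. At a gene floor of 1000 genes the ratio of Dkk3 was 1.97, below the limit, so that 2 members were called, with 9.84% of all genes. Dkk2 was at least 2.82-fold higher. Sfrp4 was lower by less than the limit at -1.61 (-2.09 to -1.10), but passed it at -2.21 without the cell that held most of it and was at -0.58 at a floor of 2500 genes. Wif1 was at 0.29 (0.01 to 0.57), and at -0.09 with each cell weighing the same. With Frzb and Dkk2 at their bounds, the 6 members had a median of 0.89, against -0.14 for all genes. When only cells that passed 1 gate were used, which leaves out the Prg4/Cilp cells, the Wif1 ratio was -2.93 and that of Sfrp4 0.01. The calls then changed to 4 of 5 members (Wif1, Sfrp1, Dkk2 and Dkk3), with 13.0% of all genes called, and Frzb had too few UMIs. This comparison shares its stroma cells with the one before it.

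**Figure D5:**
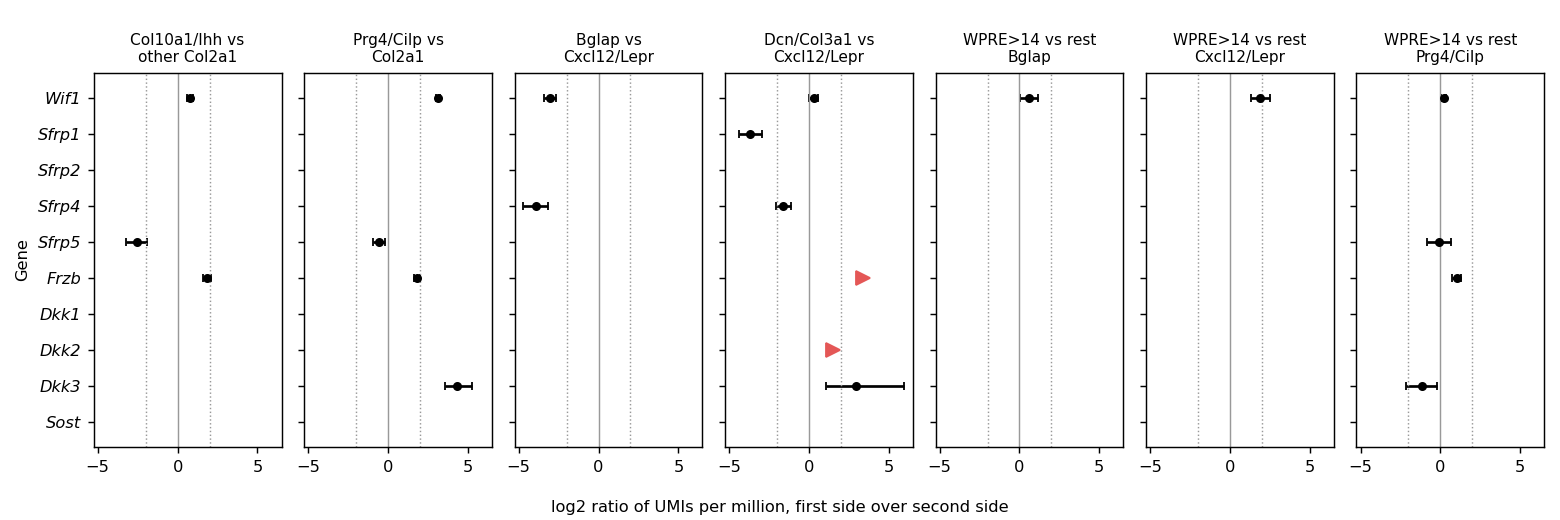
Log2 ratios of CPM (horizontal axis) of members with at least 50 UMIs in the 7 comparisons (panels), with exact 95% intervals for counting error. Dotted lines mark 4-fold, and red arrowheads are lower bounds where the second side had no UMI. Wif1 lies at 3.11 in the Prg4/Cilp panel and at -3.04 in the Bglap panel, and no member passes the dotted lines in the 3 WPRE panels.

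Cells with more than 14 WPRE UMIs, the mark of HCs and their descendants, were set against the rest within 3 gates. This split does not separate descendants from HCs. Of the 197 Prg4/Cilp cells 35, and of the 54 Bglap cells 10, also passed the Col10a1/Ihh gate, whereas no stroma cell did. In the Col10a1/Ihh gate 45 of 79 cells were above the WPRE limit. In the Bglap gate (17 and 37 cells, medians of 24811 and 27820 UMIs) 3.06% of 3172 genes were called. Wif1, the only member with enough UMIs, was not called. It was at 100 CPM (71.9 to 136) and 65.8 CPM (51.3 to 83.1), a log2 ratio of 0.61 (0.01 to 1.18), with 11 of 17 and 14 of 37 cells holding a UMI. The ratio was -0.02 with each cell weighing the same, -1.80 in cells that passed no other gate and -0.64 at a limit of more than 4 WPRE UMIs, so that its direction changed with the setting. In the stroma gate (10 and 13 cells, medians of 9086 and 6613 UMIs, so that the first side was deeper) 3.14% of 574 genes were called. Wif1, again the only member with enough UMIs, was just short of the 4-fold limit. Wif1 counts had a lowest, median and highest value of 0, 3 and 30 UMIs in the 10 cells above the limit and of 0, 0 and 17 in the 13 others, and 8 and 5 cells held a UMI. The summed levels were 1021 CPM (831 to 1240) and 273 CPM (185 to 387), a log2 ratio of 1.90 (1.31 to 2.53). The ranges of the cells overlapped. It was 0.98 at a limit of more than 4 WPRE UMIs, 4.28 in cells that passed no other gate and 2.23 at a gene floor of 2500 genes, both past the 4-fold limit, with 2.90% and 4.68% of all genes called under the last 2 settings. Sfrp4 leaned the other way in this gate, at 101 CPM (48.5 to 186) and 334 CPM (237 to 459) from 48 UMIs, with 6 of 10 and 10 of 13 cells holding it.

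In the Prg4/Cilp gate (30 and 167 cells, medians of 14328 and 11190 UMIs) 4.02% of 5749 genes were called. None of the 4 members with enough UMIs was called. Frzb was at 322 CPM (273 to 378) and 159 CPM (143 to 176), a log2 ratio of 1.02 (0.74 to 1.30), which was 0.29 without the cell that held most of it. Dkk3 was at 23.6 and 51.7 CPM, -1.13 on the log2 scale (-2.17 to -0.24), Wif1 at 951 and 825 CPM, 0.20 (0.05 to 0.35) or -0.25 in cells of only 1 gate, and Sfrp5 at -0.06 (-0.83 to 0.64). At a limit of more than 4 WPRE UMIs, Wif1 was at 1.10, Frzb at 0.70 and Dkk3 at -0.03. In cells of only 1 gate Frzb was at 0.66 and Dkk3 at -0.22, and at 2500 genes they were at 1.60 and -0.57. In all 3 gates the cells at or below 14 WPRE UMIs held more RNA of 8 listed blood markers, at 11080 against 459 CPM in the Bglap gate, 3122 against 667 CPM in the stroma gate and 11841 against 560 CPM in the Prg4/Cilp gate. Without barcodes that held a Ptprc UMI, an alternative chosen after the data had been seen, the ratio of Wif1 was 0.03 in the Bglap gate, 1.89 in the stroma gate and -0.10 in the Prg4/Cilp gate. In the Prg4/Cilp gate those of Frzb, Dkk3 and Sfrp5 were then 1.04, -1.49 and 0.16.

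The other genes of the Wnt pathway, 69 in all, were counted by role, and those named in this paragraph were picked after their levels had been seen. Of 19 ligands, 15 were seen and 6 had at least 50 UMIs in gated cells. Wnt4 and Wnt11 were highest in the Col2a1 gate, with Wnt4 at 159 CPM, Wnt5b in the Col10a1/Ihh gate at 49.1 CPM, Wnt10b in the Bglap gate at 6.79 CPM, Wnt5a in the stroma gate at 28.2 CPM from 6 UMIs, and Wnt10a in the Ptprc gate at 4.09 CPM. None of these 6 was highest in the Prg4/Cilp or Dcn/Col3a1 gates, where Wif1 had its highest levels. The stroma gate, highest for Wnt5a, held Wif1 at 621 CPM (519 to 736), which overlapped the interval of the Dcn/Col3a1 gate. All 18 receptors and co-receptors were seen and 14 had enough UMIs. The stroma gate was highest for 6 of them (Fzd1, Fzd5, Fzd8, Lrp4, Lrp6 and Ryk), the Cdh5 gate for 4 (Fzd4, Fzd6, Lrp5 and Kremen1), the Dcn/Col3a1 gate for Fzd2 and Fzd7, the Col2a1 gate for Ror2, and the Prg4/Cilp gate for Fzd9 at 87.2 CPM. The stroma gate was also highest for 5 of the 10 intracellular genes with enough UMIs. The share of all genes highest in each gate was not counted, so these counts are not a result about receptors. Of 8 targets 6 had enough UMIs. Nkd1, Nkd2 and Znrf3 were highest in the stroma gate, Lef1 in the Col2a1 gate, Tcf7 in the Bglap gate and Axin2 in the Dcn/Col3a1 gate. Axin2, a widely used readout of Wnt signalling, was low throughout, between 1.23 CPM in the Ptprc gate and 8.39 CPM in the Dcn/Col3a1 gate.

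Of the 69 genes, 6 of 32 with enough UMIs were called between the Prg4/Cilp and Col2a1 gates, against 6.29% of all genes, and 5 of 29 between the Col10a1/Ihh and the other Col2a1 cells, against 4.09%. The stroma gate gave 3 of 12 against the Bglap gate and 4 of 20 against the Dcn/Col3a1 gate, beside 12.7% and 10.1%. By WPRE, 2 of 10 were called in the Bglap gate, 0 of 2 in the stroma gate and 1 of 16 in the Prg4/Cilp gate, beside 3.06%, 3.14% and 4.02% of all genes. Between the Prg4/Cilp and Col2a1 gates, 2 of 3 ligands with enough UMIs were lower in the Prg4/Cilp gate, where Wif1 was higher. Wnt4 was at 17.8 against 157 CPM, a log2 ratio of -3.14 (-3.61 to -2.70), and Wnt5b at 4.05 against 26.0 CPM, -2.68 (-3.78 to -1.76). Of the other 6 extracellular genes with enough UMIs, Rspo3 and Rspo4, which encode R-spondins that strengthen Wnt signals, were lower there, with log2 ratios of -6.35 (-9.40 to -4.49) for Rspo3 and Rspo4 at least 42.7-fold lower, whereas Lgr6, an R-spondin receptor gene, was higher at 124 against 7.67 CPM, 4.01 (3.54 to 4.52). The target Lef1 was lower at -2.20 (-2.80 to -1.65). None of 10 receptors and none of 10 intracellular genes was called.

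Between the Col10a1/Ihh cells and the other Col2a1 cells, Wnt5b, Lgr6 and the transcription factor gene Tcf7l2 were higher, with log2 ratios of 2.08 (1.57 to 2.61), 3.61 (2.94 to 4.36) and 2.75 (2.44 to 3.07). Lef1 and Notum, which encodes a secreted enzyme that inactivates Wnt ligands, were lower, at -3.43 (-4.35 to -2.63) and -3.33 (-4.35 to -2.46), the same side as Sfrp5. The stroma gate was above the Bglap gate in Rspo3, Fzd5 and Lrp6, with log2 ratios of -3.09 (-3.59 to -2.58), -2.49 (-3.22 to -1.75) and -2.10 (-2.84 to -1.34), and above the Dcn/Col3a1 gate in Rspo3, Fzd1 and Fzd5, at -5.60 (-6.60 to -4.71), -2.84 (-3.62 to -2.02) and -2.75 (-3.51 to -1.96). Fzd9, at 143 UMIs against 0, was at least 4.15-fold higher in the Dcn/Col3a1 gate. By WPRE, Rspo3 and Rspo4 were lower in Bglap cells above the limit, at -3.53 (-6.61 to -1.61) and at least 7.18-fold, and Wnt4 was at least 6.89-fold lower in Prg4/Cilp cells above it.

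For each of the 8 members with at least 50 UMIs in gated cells, the 3 genes most alike in their pattern were named by Pearson's r of log2(CPM + 10) over the 8 gates, among 10110 genes with at least 200 UMIs. The 8 points share cells between gates and have unequal depth, and with so many genes high values of r arise readily. The genes nearest to Wif1 were Srpx2, Ltbp3 and Rin2 (0.99, 0.98 and 0.98). Srpx2 was at 117, 103 and 86.1 CPM in the Prg4/Cilp, Cxcl12/Lepr and Dcn/Col3a1 gates, and the gene for the TGF-β-binding protein Ltbp3 at 152, 98.8 and 140 CPM. Nearest to Frzb were Ackr3, Stk38l and Bnip3 (0.99, 0.99 and 0.98), and Ackr3 was at 0 UMIs in the stroma gate, as Frzb was. Sfrp1 was most like Fst, the gene for follistatin (1.00), which was at 287 CPM in the stroma gate and 23.8 CPM in the Dcn/Col3a1 gate. Dkk2 was most like Mfap5, Clec3b and Dpt (0.95, 0.92 and 0.91), genes of fibroblast matrix, with Mfap5 at 109 CPM in the Dcn/Col3a1 gate and at most 9.41 CPM elsewhere. Dkk3 was most like Prrx2 (0.97), at 83.0 and 45.9 CPM in the Dcn/Col3a1 and Prg4/Cilp gates, Sfrp5 most like Map9 (0.97), Sfrp4 most like Cbr3 (0.97) and Dkk1 most like Fam174a (0.92). The remaining genes named by this rule were Ift172 and Senp7 for Sfrp1, AW554918 and Manbal for Sfrp4, Lactb2 and Smpd2 for Sfrp5, Fam3c and Nr4a2 for Dkk1, and Ppp2r3a and Golim4 for Dkk3, with r between 0.88 and 0.99.

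Member UMIs among blood cells lay mostly in barcodes that also passed a skeletal gate. Of the 476 Wif1 UMIs in the Ptprc gate, 448 were in the 90 barcodes that passed both, where 53.3% held Wif1, and 26 in the 3150 that passed the Ptprc gate alone, at 0.670 CPM (0.437 to 0.981). The same held for Frzb, with 205 of 221 UMIs in the shared barcodes, and for Sfrp5, with 87 of 101. Sfrp4 differed in that 30 of its 34 UMIs in shared barcodes lay in 1 of them, and 16 UMIs were in Ptprc-only cells. In the skeletal gates the 8 blood markers summed to between 1980 CPM in the stroma gate and 9955 CPM in the Prg4/Cilp gate, against 102313 CPM in the Ptprc gate and 30176 CPM in the Cdh5 gate. Without barcodes that held a Ptprc UMI, the ratio of Wif1 was 3.17 between the Prg4/Cilp and Col2a1 gates and -2.60 between the Bglap and stroma gates, where that of Sfrp4 was -3.21, and Frzb passed the limit between the Col10a1/Ihh and the other Col2a1 cells at 2.01, with 4.64% of all genes called.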

How the data were processed

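Cells of the tibia were profiled by 10x droplet sequencing. The authors deposited raw UMI counts per gene and barcode for the mouse genome (mm10) and for added sequences, WPRE among them. The submitters' processing notes name Cell Ranger 3.1.0 and Seurat 3, with an annotation release not given in the sources used here.

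Barcodes with at least 1600 genes were kept and gated on raw UMIs: Col2a1 at least 10 with Prg4 at most 1, Col10a1 plus Ihh at least 5, Prg4 plus Cilp at least 2 with Acan at least 1, Bglap at least 20, Cxcl12 at least 20 with Lepr plus Adipoq at least 2, Dcn and Col3a1 each at least 3, Cdh5 at least 1, and Ptprc at least 1. The members, lists and gates were chosen with earlier results of these data known. UMIs were summed per gate and divided by the gate's total. Log2 ratios have exact conditional 95% intervals, and for a side with no UMI the bound uses 3 counts. Shares at equal depth are exact hypergeometric expectations at 3000 UMIs per cell. HC descent was read as more than 14 WPRE UMIs, a limit that 45 of the 79 Col10a1/Ihh cells also passed. With 1 pool no test was made.

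Named genes were the 10 members, other Wnt genes past 4-fold, and, for each member with at least 50 UMIs in gated cells, the 3 genes nearest in pattern. Some genes of the marker lists, and further Wnt genes picked after their levels had been seen, were named as well. Scrublet (run through scanpy 1.11.5, expected doublet rate 6%) was used to mark doublets, which were kept. It marked 445 of 12564 barcodes (3.54%), 332 of the 4472 used, at most 3 in any skeletal gate, 6 in the Cdh5 and 311 in the Ptprc gate. Coordinates are from GENCODE M21, in which 30934 of 31053 gene IDs were found. Scripts used numpy 2.4.6, scipy 1.17.1, pandas 2.3.3 and matplotlib 3.10.9 and were tested on simulated data. In all, 12 alternatives fixed at the outset changed the gene floor, the mitochondrial limit, cell weights, gate overlap, doublets, the top cell, the WPRE limit, the UMI minimum and the fold limit. A further 2 were chosen after seeing the data, leaving out barcodes with a Ptprc UMI, and leaving out Bglap cells in the Col2a1 gate.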

Additional observations from a re-analysis of the deposited data

Results flagged for a closer look

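Members were also seen outside the cells compared above, in 697 barcodes that passed no gate and in 8092 barcodes below the gene floor, at UMI counts above the limit of 3 counts. In no gate, Wif1 had 63 UMIs in 10 cells, Sfrp5 60 in 5, Sfrp4 41 in 11, Dkk3 19 in 14 and Frzb 10 in 3. A few cells held most of them, except for Dkk3, where the richest cell held 6. The cell richest in Wif1 held 30 of its UMIs with 103 of Col1a1, 13 of Dcn and 7 of Bglap and none of Col3a1. The cell richest in Sfrp5 held 32 of its UMIs with 29 of Acan, 6 of Col2a1 and 12 of Dcn, and that richest in Frzb held 8 with 68 of Acan and 4 of Col2a1. Both were therefore below the limit of 10 Col2a1 UMIs. The cell richest in Sfrp4 held 19 of its UMIs with 15 of Acan and 2 of Col2a1, although Sfrp4 was at 1.79 CPM or below in the cartilage gates.

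Below the gene floor, Wif1 had 76 UMIs in 42 cells, Frzb 23 in 17, Sfrp4 15 in 11, Sfrp5 14 in 4, Dkk3 12 in 12, Sfrp1 5 in 5 and Dkk1 4 in 2. The highest Wif1 and Frzb counts there, 14 and 5 UMIs, came with 109 UMIs of Col2a1, 55 of Dcn and 13 of Col3a1.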

How the results depend on the processing

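Of 153 recomputed counts of members past 4-fold or highest in a gate, 130 stayed at or near their value, and of 171 recomputed ratios 130 moved by less than their counting interval, 41 by more. At a gene floor of 2500, 1 member was past 4-fold between the Bglap and stroma gates (Wif1) and 1 by WPRE in the stroma gate (Wif1), with 12.3% and 4.68% of all genes past it. Sfrp4 was then at -4.55 between the Bglap and stroma gates but had 31 UMIs, under the minimum of 50. With each cell weighing the same, 1 member was highest in each of the Col10a1/Ihh (Frzb), Prg4/Cilp (Wif1) and Bglap (Dkk1) gates. With cells of only 1 gate (for Col10a1/Ihh cells, the Col2a1 gate was allowed as well), 3 members were past 4-fold between the Col10a1/Ihh and Col2a1 gates (Wif1, Sfrp5 and Frzb), 1 between the Bglap and stroma gates (Sfrp4) and 1 by WPRE in the stroma gate (Wif1), beside 7.37%, 17.4% and 2.90% of all genes, and 1 was highest in the stroma gate (Sfrp1), since Sfrp4 was then highest in the Dcn/Col3a1 gate. At a 2-fold limit, 2 were called between the Col10a1/Ihh and Col2a1 gates (Sfrp5 and Frzb), 5 between the Dcn/Col3a1 and stroma gates (all but Wif1), 1 by WPRE in the stroma gate (Wif1) and 2 in the Prg4/Cilp gate (Frzb and Dkk3), beside 15.0%, 30.1%, 11.8% and 15.0% of all genes. Without barcodes with a Ptprc UMI, 2 were past 4-fold between the Col10a1/Ihh and Col2a1 gates (Sfrp5 and Frzb), beside 4.64% of all genes, and 1 was highest in the Bglap gate (Dkk1). Without Bglap cells of the Col2a1 gate, 1 was past 4-fold between the Bglap and stroma gates (Sfrp4), beside 14.1% of all genes, and 1 was highest in the Bglap gate (Dkk1). The Cdh5 gate (Dkk1) held 0 members under each of these settings other than the fold limit, and without the cell with most UMIs. At 2500 genes and in cells of only 1 gate Dkk1 had 43 and 11 UMIs, also under it, although at 2500 genes it was still highest there at 22.5 CPM. The cause of changes for which no UMI count is given was not tested. Scaling each cell to an expected 3000 UMIs gives the same levels as weighing cells equally.

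The 23 stroma cells and 54 Bglap cells limit every ratio made with them, and 0 UMIs in the stroma gate allow a level of up to 14.1 CPM. Intervals hold no variation between mice. No paired analysis was possible because the 8 samples were deposited as 1 pool with no mark of sample, and leaving out a replicate was not possible for the same reason.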
